A study of Mus musculus with 19 samples.

Results

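The Fc receptor genes of eWAT (epididymal white adipose tissue, the fat pad next to the epididymis) are described here across 4 diets. They are Fcgr1, Fcgr2b, Fcgr3, Fcgr4, Fcer1g and Fcgrt, taken by their symbols, so that 6 of the 24237 genes with usable values were chosen, and all 6 were among the 8336 genes abundant enough to be tested. Male C57Bl6/J mice, aged 9 to 10 weeks at the start, were fed for 17 weeks on diets with normal or low Mg2+ (0.21% or 0.03% wt/wt magnesium oxide) and low or high fat (10% or 60% of energy from palm oil). There were 4 mice on NormMg-LFD and 5 on each of LowMg-LFD, NormMg-HFD and LowMg-HFD, each mouse being 1 RNA library. Mice of every group had earlier been injected with insulin and with D-glucose for tolerance tests, and the labels do not say which of those sequenced had received insulin.

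Fc receptors bind the constant part of antibodies. Fcgr1 encodes the high-affinity receptor for IgG, and Fcgr3 and Fcgr4 encode further activating receptors for IgG complexes. All of these signal through the common gamma chain, encoded by Fcer1g, whose ITAM (an activating tyrosine motif) is phosphorylated by Src family kinases and then bound by the kinase Syk, which leads to phagocytosis and the release of inflammatory mediators. Fcgr2b encodes the inhibitory receptor, whose ITIM (an inhibitory tyrosine motif) recruits the phosphatase SHIP1, encoded by Inpp5d. Fcgrt encodes the heavy chain of FcRn, a receptor of a different family that pairs with beta-2 microglobulin (B2m) and returns IgG and albumin to the circulation after uptake. In fat, the activating receptors are carried mostly by macrophages, which accumulate in obesity, whereas FcRn is also made by endothelial cells.

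The 4 genes Fcgr2b, Fcgr4, Fcgr3 and Fcer1g lie within 275.7 kb of chromosome 1 (GRCm38, GENCODE M21 annotation). Fcgr2b was annotated at chr1:170958617-170976547 on the minus strand, Fcgr4 at chr1:171018920-171029761 on the plus strand, Fcgr3 at chr1:171051174-171064935 on the minus strand and Fcer1g at chr1:171229572-171234365 on the minus strand. Fcgr1 lies apart at chr3:96282909-96293969 and Fcgrt at chr7:45092990-45103851, both on the minus strand. Exons of Fcgr2b overlap those of an annotated antisense gene (Gm38204) by up to 155 bases, and since the sources used here do not say that strand was used in counting, reads there cannot be told apart.

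Fcgr2b and Fcgr3 are near copies in the part that binds IgG. Over 509 coding bases (bases 126 to 634 of Fcgr2b and 111 to 619 of Fcgr3, counted from the start codon) they were 96.5% identical, with an identical run of 129 bases, longer than the 50-base reads. The 120 bases of that stretch with the most differences are shown for both genes, because these 11 differences, in capitals, are what separates their reads here:
Fcgr2b: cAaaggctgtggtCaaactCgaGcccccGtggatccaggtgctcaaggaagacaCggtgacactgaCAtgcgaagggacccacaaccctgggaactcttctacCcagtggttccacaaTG
Fcgr3: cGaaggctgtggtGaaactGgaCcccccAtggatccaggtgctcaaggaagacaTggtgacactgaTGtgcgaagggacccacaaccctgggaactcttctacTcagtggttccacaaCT
Of all distinct 50-base words in the annotated transcripts, 9.6% of those of Fcgr3 were also found in Fcgr2b, and 2.9% of those of Fcgr2b in Fcgr3. For Fcgr2b 6.9% were shared with any other gene, which adds words shared with annotated antisense strands of Gm38204 (1.9%), Cplx2 (1.7%) and Gm47409 (1.7%). Reads from such stretches could be divided only by estimate, so the levels of both receptors are uncertain. No 50-base word of Fcgr1, Fcgr4, Fcer1g or Fcgrt was found in the transcripts of another gene.

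The promoters of 3 genes that moved together are shown as well, from the RefSeq windows of GRCm38.p6 that run from 250 bases before to 50 bases after the start. The motifs searched on both strands, in capitals below, were GAGGAA (the core of sites for the myeloid factor PU.1, held by 28.3% of all 32851 windows), TTCNNNGAA (the interferon-gamma activated site, 8.3%), the interferon-stimulated response element (GAAA, any 2 bases, then GAAA, 3.4%) and CCGCCC (the core of GC boxes, 35.7%), where N is any base. No match overlapped another. Only bases before every annotated exon are printed, at chr3:96293970-96294219 for Fcgr1, chr1:171018676-171018919 for Fcgr4 and chr1:171234366-171234599 for Fcer1g, each 5′ to 3′ on the strand of the gene:
Fcgr1: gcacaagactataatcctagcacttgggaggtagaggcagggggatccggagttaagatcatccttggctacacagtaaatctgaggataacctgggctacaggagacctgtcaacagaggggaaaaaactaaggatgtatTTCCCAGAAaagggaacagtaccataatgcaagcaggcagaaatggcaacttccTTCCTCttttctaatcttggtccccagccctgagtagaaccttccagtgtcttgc
Fcgr4: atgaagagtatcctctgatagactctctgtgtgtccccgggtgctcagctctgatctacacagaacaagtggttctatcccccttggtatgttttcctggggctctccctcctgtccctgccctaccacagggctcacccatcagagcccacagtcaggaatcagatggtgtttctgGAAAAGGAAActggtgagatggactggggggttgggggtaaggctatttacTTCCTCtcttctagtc
Fcer1g: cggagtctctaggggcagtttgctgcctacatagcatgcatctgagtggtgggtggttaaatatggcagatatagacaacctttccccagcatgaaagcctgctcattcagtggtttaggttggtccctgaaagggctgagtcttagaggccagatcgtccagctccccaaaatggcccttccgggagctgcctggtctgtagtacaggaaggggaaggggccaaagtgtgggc
The letters GAGGAA, read on the opposite strand as TTCCTC, stood 55 bases before the start of Fcgr1 and 22 bases before that of Fcgr4, and they were also in both windows given for Fcgr3. TTCNNNGAA was found in the window of Fcgr1, 109 bases before its start, and the interferon-stimulated response element in that of Fcgr4, 73 bases before its start. The windows of Fcgr2b, Fcer1g and Fcgrt held none of the 4 motifs, which says only that these letters are not in them.

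Values are FPKM (fragments per kilobase of transcript, scaled to the mapped reads of the library), which allow for length, so that levels of different genes can be set side by side. Tests were made by limma on log2(FPKM + 1), a scale that understates the change of low genes, and a gene was called at a Benjamini-Hochberg adjusted p under 0.05 over all genes tested. The libraries had 12986441 to 13027028 reads with 86.12% to 90.41% mapped. Genes listed at 0 numbered 4355 in LowMg-HFD replicate 4, 5079 in NormMg-LFD replicate 4, which had the lowest share mapped, 5876 in NormMg-LFD replicate 5 and 6306 to 7150 in the other mice. Some libraries stood apart in transcripts of neighbouring tissue. The 16 pancreatic enzyme genes summed to 1976 FPKM in NormMg-LFD replicate 3 and to 12.46 to 61.96 in the other mice. The 8 epididymal genes summed to 127.2 in LowMg-LFD replicate 4 and 28.81 in LowMg-HFD replicate 4, against at most 4.44 elsewhere. The study's methods left out a LowMg-HFD mouse for pancreatic tissue, which the labels do not name, so all deposited mice were used. The pancreatic genes summed to 24.06 to 51.21 FPKM in the mice labelled LowMg-HFD, so none of these stood out. The only library high in them was labelled NormMg-LFD, which differs from the study's account. The tissue markers were as labelled, with the adipocyte gene Adipoq (adiponectin) at a group mean of 1263 to 2340 FPKM. Macrophage genes differed strongly between the diets and are given beside the results.

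**Figure D1:**
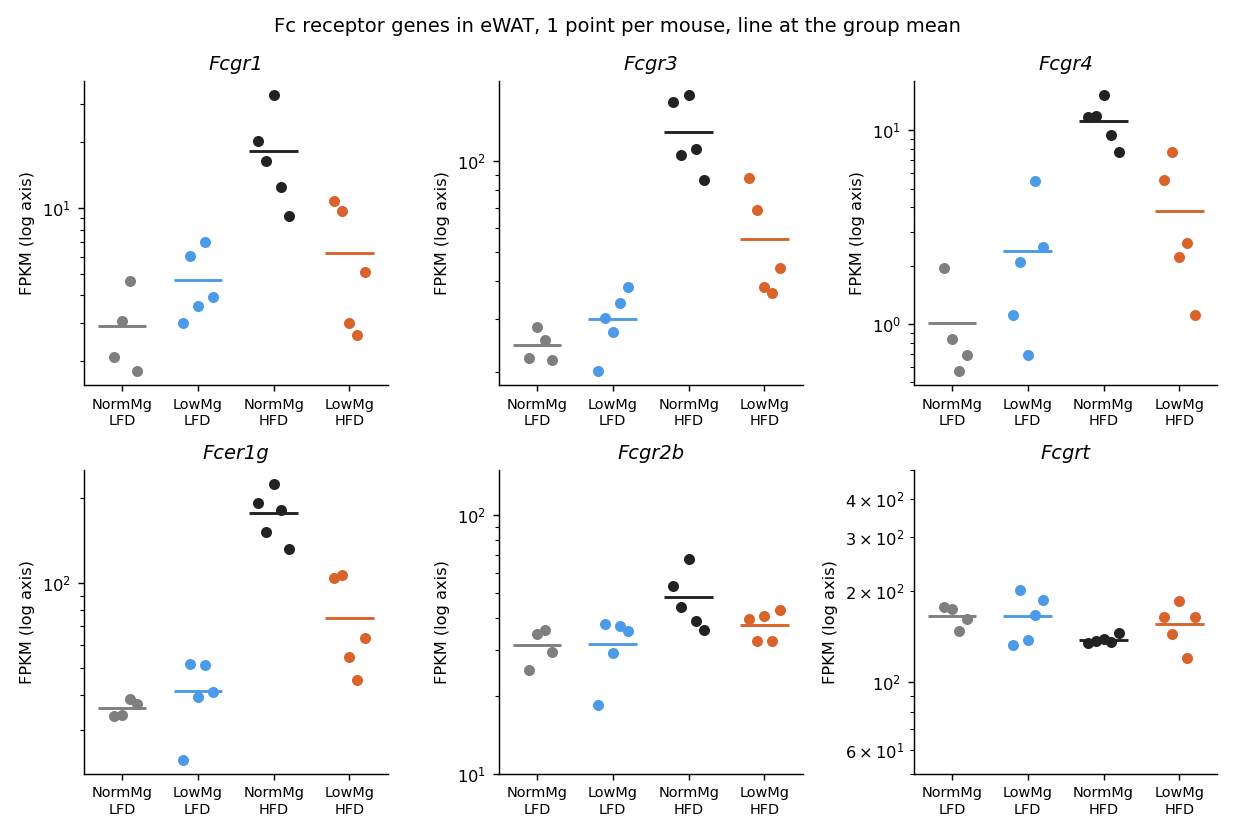
FPKM of each Fc receptor gene (log axis) in 4 diet groups, with 1 point per mouse and a line at the group mean. Fcgr1, Fcgr3, Fcgr4 and Fcer1g stood highest in the NormMg-HFD mice, where Fcer1g ran from 131.5 to 224.39 and no mouse of the other groups passed 106.58. Fcgr2b and Fcgrt varied far less.

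The first comparison asked what the HFD did at normal Mg2+. The common gamma chain and every activating receptor rose 4.89-fold to 11.1-fold in mean FPKM, whereas the inhibitory receptor rose 1.53-fold and FcRn did not pass the test. Thus 5 of 6 members were higher, against a background of 24.6% of genes tested that were called higher and 12.8% called lower. The values of the 5 did not overlap between the groups, while 21.5% of genes tested did not overlap in that direction.

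Fcer1g had 33.85, 34.11, 38.71 and 37.13 FPKM in the NormMg-LFD mice and 191.31, 150.85, 224.39, 181.11 and 131.5 in the NormMg-HFD mice. The lowest value of the HFD mice was far above the highest of the LFD mice. This was a log2 fold change of 2.24 (SE 0.24, adjusted p = 2.07e-06, limma).

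Fcgr3, the low-affinity activating receptor, had 22.24, 28.3, 25.69 and 21.99 FPKM in the NormMg-LFD mice and 156.45, 104.19, 164.97, 109.0 and 86.52 in the NormMg-HFD mice. The groups were again well apart. Its log2 fold change of 2.26 (SE 0.24, adjusted p = 2.04e-06, limma) was close to that of Fcer1g.

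Fcgr1, the high-affinity receptor, was low on the LFD, at 2.09, 3.04, 4.66 and 1.8 FPKM in the NormMg-LFD mice, and reached 20.29, 16.51, 33.02, 12.53 and 9.25 in the NormMg-HFD mice. Every HFD mouse was above every LFD mouse, with replicate 3 highest. On the log2 scale Fcgr1 rose by 2.24 (SE 0.37, adjusted p = 0.00011, limma).

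Fcgr4, the activating receptor for IgG2 complexes, had 1.94, 0.84, 0.57 and 0.69 FPKM in the NormMg-LFD mice and 11.72, 11.8, 15.26, 9.52 and 7.72 in the NormMg-HFD mice. It was the least abundant member in every group. The rise, by 2.62 on the log2 scale (SE 0.40, adjusted p = 4.11e-05, limma), was 2.02 with quantile normalization, under which Fcgr3 rose by 2.11 and Fcer1g by 2.07. Fcgr1 and Fcgr4 passed the abundance filter only through the NormMg-HFD mice, the group where they were high, so that a difference was favoured by the filter. Without any filter on low values, 24237 genes being tested, the adjusted p by limma was 0.000563 for Fcgr1 and 0.000205 for Fcgr4.

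Fcgr2b, the inhibitory receptor, had 25.13, 34.72, 35.85 and 29.66 FPKM in the NormMg-LFD mice and 53.07, 44.19, 68.02, 39.05 and 36.11 in the NormMg-HFD mice. The lowest HFD mouse lay just above the highest LFD mouse. The change was 0.58 on the log2 scale (95% interval 0.16 to 0.99, adjusted p = 0.0269, limma). The call was lost without NormMg-LFD replicate 2 or 5 or NormMg-HFD replicate 1 or 3, with adjusted p values up to 0.095, with no filter on low values (0.0665) and with quantile normalization (0.0527).

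Fcgrt, the heavy chain of FcRn, had 176.6, 174.17, 147.54 and 161.55 FPKM in the NormMg-LFD mice and 134.27, 137.15, 138.52, 135.21 and 145.15 in the NormMg-HFD mice. All HFD values lay below the LFD values, yet the difference was small. The share of all genes tested that did not overlap in this direction was not counted. The log2 fold change was -0.25 (95% interval -0.51 to 0.01, adjusted p = 0.123, limma), and it passed the threshold with median centring (adjusted p = 0.0435), quantile normalization (0.00498) or only these groups in the fit (0.0233). B2m, its partner chain, rose by a log2 of 0.62 (SE 0.12, adjusted p = 0.000626, limma), so the ratio of Fcgrt to B2m FPKM had a mean of 0.121 in the NormMg-LFD and 0.0662 in the NormMg-HFD mice.

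**Figure D2:**
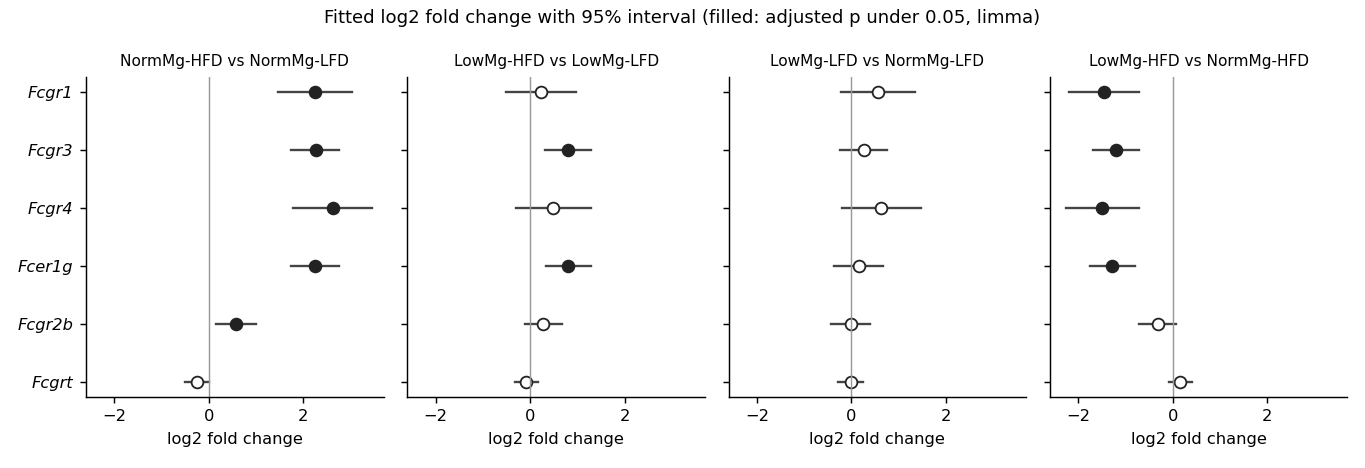
Log2 fold changes of the 6 genes (points) with their 95% intervals (lines) in the comparisons of 2 groups, filled where the adjusted p was under 0.05 by limma. At normal Mg2+ the HFD moved the activating receptors and Fcer1g by 2.24 to 2.62, low Mg2+ on the HFD moved them by -1.20 to -1.49, and no member passed the test between the LFD groups.

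The second comparison asked whether low Mg2+ changed the Fc receptors of mice on the HFD. Transcripts of all 3 activating receptors and of the common gamma chain fell to between 0.341 and 0.444 of their NormMg-HFD mean. Neither the inhibitory receptor nor FcRn passed the test. Thus 4 of 6 members were called lower and none higher, where the background was 12.9% of genes called lower and 5.58% called higher.

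Fcer1g had 103.93, 106.58, 54.51, 45.16 and 63.67 FPKM in the LowMg-HFD mice, against 131.5 or more in every NormMg-HFD mouse. It was the only member whose groups did not overlap, as was so in this direction for 9.56% of genes tested. On the log2 scale it fell by 1.28 (SE 0.23, adjusted p = 0.00224, limma).

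Fcgr3 had 87.5, 68.93, 38.38, 36.61 and 44.26 FPKM in the LowMg-HFD mice. The highest of these just reached the lowest NormMg-HFD mouse, at 86.52. Fcgr3 had a change of -1.20 on the log2 scale (SE 0.23, adjusted p = 0.00267, limma).

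Fcgr1 had 10.78, 9.71, 2.99, 2.64 and 5.09 FPKM in the LowMg-HFD mice, where replicates 1 and 2 overlapped the lowest NormMg-HFD mouse and the other 3 were at the level of the LFD mice. The fall of Fcgr1 was by a log2 of -1.46 (SE 0.35, adjusted p = 0.00782, limma). Fcgr4 had 5.54, 7.72, 2.21, 2.62 and 1.11 FPKM, likewise highest in replicates 1 and 2, with a log2 fold change of -1.49 (SE 0.37, adjusted p = 0.00986, limma). For these low genes too the filter acted through the NormMg-HFD mice, and without it the adjusted p by limma was 0.0272 for Fcgr1 and 0.0304 for Fcgr4. The 4 genes were called under every alternative tried, including those without any of the mice with neighbouring tissue, where the log2 fold changes were -1.25 for Fcgr1, -1.08 for Fcgr3, -1.43 for Fcgr4 and -1.12 for Fcer1g.

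Fcgr2b had 39.72, 32.52, 40.6, 32.57 and 42.98 FPKM in the LowMg-HFD mice, within a narrower range than on the NormMg-HFD. The log2 fold change was -0.32 (95% interval -0.71 to 0.07, adjusted p = 0.252, limma), and the value was -0.18 without NormMg-HFD replicate 3. Fcgrt had 163.44, 144.09, 185.69, 120.5 and 163.64 FPKM, more spread than the tight NormMg-HFD values, with a log2 fold change of 0.16 (95% interval -0.09 to 0.40, adjusted p = 0.382, limma), which was 0.09 without LowMg-HFD replicate 3 and 0.30 with quantile normalization. B2m was at -0.22 (SE 0.12, adjusted p = 0.213).

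The LowMg-HFD mice were not alike. Replicates 1 and 2 had more Fcgr1, Fcgr3, Fcgr4 and Fcer1g than replicates 3, 4 and 5, and so did the macrophage genes, whose mean log2(FPKM + 1) over 16 genes was 5.43 and 5.35 in the former and 4.59 to 4.75 in the latter. Macrophage markers moved with the receptors in the group comparison. Of 14 tested, 11 were lower in the LowMg-HFD mice, where 12.9% of all genes tested were called lower. The 11 included Adgre1 (F4/80), with a log2 fold change of -1.62 (SE 0.27, adjusted p = 0.00178, limma), and Cd68, at -1.61 (SE 0.34, adjusted p = 0.00404). Msr1, 1 of the 14, passed the filter only through the NormMg-HFD mice. Of the other 13, 10 were lower. With no filter 11 of 16 were called lower, where 3.85% of 24237 genes were. The scavenger receptor gene Cd163 was 1 of the 3 not called, at 0.27 (adjusted p = 0.388). Mrc1, also on the list, fell by 0.72 on the log2 scale (adjusted p = 0.0227 with no filter, limma). The summed FPKM of the list ran from 648.3 to 783.6 in the NormMg-LFD, 511.9 to 941.0 in the LowMg-LFD, 3111 to 4884 in the NormMg-HFD and 945.6 to 2781 in the LowMg-HFD mice, and none of its genes was at 0 throughout a group. In whole tissue, fewer cells of a type and less RNA per cell cannot be told apart, and the part of macrophage number in these results was not tested.

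On the LFD, low Mg2+ gave no call for any member, nor for any of the 8336 genes tested by limma (0.0%), of which 547 had an unadjusted p under 0.05. Fcer1g had 23.59, 51.51, 39.4, 51.02 and 41.14 FPKM in the LowMg-LFD mice, a wider range than on the NormMg-LFD, and a log2 fold change of 0.15 (95% interval -0.36 to 0.66). Fcgr3 had 20.19, 30.36, 27.22, 33.97 and 38.41 FPKM and a log2 fold change of 0.26 (95% interval -0.25 to 0.76). These LowMg-LFD mice spanned the NormMg-LFD values on both sides. The value of Fcer1g was 0.33 without LowMg-LFD replicate 1 and 0.06 without LowMg-LFD replicate 2 or 4, and that of Fcgr3 was 0.39 without LowMg-LFD replicate 1 and 0.16 without LowMg-LFD replicate 5.

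The low receptors had the widest intervals on the LFD. Fcgr1 had 3.0, 6.05, 3.57, 7.02 and 3.92 FPKM in the LowMg-LFD mice and a log2 fold change of 0.56 (95% interval -0.23 to 1.34). Fcgr4 had 1.11, 2.1, 0.69, 5.5 and 2.51 FPKM, the highest in replicate 4, a mouse with epididymal transcripts, and a log2 fold change of 0.63 (95% interval -0.20 to 1.47), which was 0.33 without the mice with neighbouring tissue, 0.36 without LowMg-LFD replicate 4 alone and 0.98 with a pseudocount of 0.1. A rise of both genes by a log2 of 1 lies inside these intervals. Fcgr2b, at 18.38, 37.96, 29.32, 37.39 and 35.65 FPKM, and Fcgrt, at 132.23, 201.75, 137.79, 166.75 and 186.18, had log2 fold changes of -0.01 (95% interval -0.43 to 0.40) and -0.02 (95% interval -0.28 to 0.25), whose sign changed with the scaling.

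The HFD at low Mg2+ gave a smaller picture. Fcgr3 (log2 fold change 0.80, SE 0.23, adjusted p = 0.0227, limma) and Fcer1g (0.81, SE 0.23, adjusted p = 0.0221) were higher in the LowMg-HFD than in the LowMg-LFD mice, that is 2 of 6 members against a background of 12.4% called higher. The groups overlapped for both genes. The log2 fold changes of Fcgr1 (0.23), Fcgr2b (0.28), Fcgr4 (0.49) and Fcgrt (-0.08) did not pass, and single mice moved them. As each mouse was left out, Fcgr1 ran from 0.0095 (without LowMg-HFD replicate 1) to 0.43 (without LowMg-HFD replicate 4), Fcgr4 ran from 0.24 (without LowMg-HFD replicate 2) to 0.77 (without LowMg-LFD replicate 4), and Fcgr2b fell to 0.10 without LowMg-LFD replicate 1. Without the mice with neighbouring tissue Fcgr1 was at 0.57 and Fcgr4 at 0.83. Both calls were lost without LowMg-HFD replicate 1 or 2 or LowMg-LFD replicate 1, with adjusted p values between 0.0707 and 0.0756. They were also lost with no filter on low values (0.071 for Fcgr3 and 0.07 for Fcer1g, limma) and with only the groups compared in the fit (0.0649 and 0.0833).

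Whether low Mg2+ acted differently on the HFD and the LFD was tested as an interaction. Its log2 size was -1.46 for Fcgr3 (SE 0.33, adjusted p = 0.0447, limma) and -1.43 for Fcer1g (SE 0.33, adjusted p = 0.0461), the 2 members called, while 0.756% of genes tested were called in that direction. Fcgr1 (-2.02, SE 0.51) and Fcgr4 (-2.12, SE 0.55) did not pass, both with an adjusted p of 0.0551, and their values were also subject to the filter that acted through the NormMg-HFD mice. Without that filter no member was called, with an adjusted p by limma of 0.12 for Fcgr3, 0.124 for Fcer1g, 0.136 for Fcgr1 and 0.135 for Fcgr4. Nor was any called without the mice with neighbouring tissue, where it was 0.116, 0.13, 0.145 and 0.149 in the same order. The calls of Fcgr3 and Fcer1g were lost too with a pseudocount of 0.1, genes over 1 FPKM, no intensity trend, the replicate block or genes of a mean over 1 FPKM over all mice, with adjusted p values between 0.0501 and 0.0873. With quantile normalization the adjusted p was 0.0322 for Fcgr1 and 0.0285 for Fcgr4. Fcgr2b stood at -0.30 (95% interval -0.87 to 0.27), which was -0.17 without NormMg-HFD replicate 3 and -0.48 without LowMg-LFD replicate 1. Fcgrt stood at 0.17 (95% interval -0.19 to 0.53), and at 0.10 without LowMg-HFD replicate 3 or LowMg-LFD replicate 1, 0.11 without LowMg-LFD replicate 3 and 0.26 without LowMg-HFD replicate 4. These calls were not stable. No member was called without NormMg-LFD replicate 2, 3, 4 or 5, NormMg-HFD replicate 1, 3 or 4, LowMg-HFD replicate 3, 4 or 5, or LowMg-LFD replicate 2, 3, 4 or 5, and 1 was called without NormMg-HFD replicate 2. By contrast, 4 members were called without NormMg-HFD replicate 5, LowMg-HFD replicate 1 or 2, or LowMg-LFD replicate 1. The size itself stayed between -1.64 and -1.33 for Fcgr3 and between -1.61 and -1.27 for Fcer1g as each mouse was left out.

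The order of the levels also differed by diet. In NormMg-LFD mice Fcgrt was highest, with a mean of 165 ± 13.4 FPKM (SD, n = 4), followed by Fcer1g, Fcgr2b and Fcgr3 at 36.0 ± 2.37, 31.3 ± 4.94 and 24.6 ± 3.01, neighbours whose values overlapped. Fcgr1 at 2.90 ± 1.29 and Fcgr4 at 1.01 ± 0.63 were far below, and overlapped each other. The LowMg-LFD mice had the same order. In NormMg-HFD mice Fcer1g led with 176 ± 36.1 FPKM (SD, n = 5), then Fcgrt with 138 ± 4.30 and Fcgr3 with 124 ± 34.5, again with overlapping values, while Fcgr2b had 48.1 ± 12.9. In the LowMg-HFD mice Fcgrt was above every value of Fcer1g, and Fcer1g, Fcgr3 and Fcgr2b overlapped in a row.

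**Figure D3:**
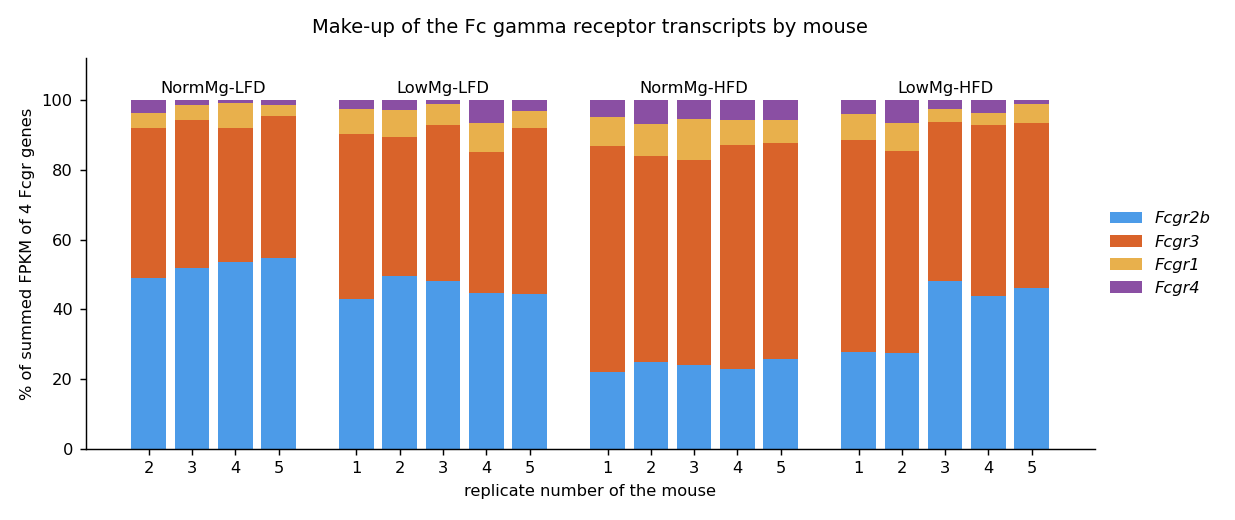
Share of each receptor in the summed FPKM of Fcgr1, Fcgr2b, Fcgr3 and Fcgr4, 1 bar per mouse, in 4 diet groups. The inhibitory Fcgr2b made up 48.9% to 54.8% in the NormMg-LFD mice and 22.0% to 25.9% in the NormMg-HFD mice, and the LowMg-HFD mice fell into 2 at 27.4% and 27.7% and 3 at 43.8% to 48.2%.

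Since the activating receptors rose more than the inhibitory receptor, the make-up of the IgG receptor transcripts shifted. These ratios follow from the values above and are given with no test. The summed FPKM of Fcgr1, Fcgr2b, Fcgr3 and Fcgr4 was 59.8 ± 8.20 (SD, n = 4) in the NormMg-LFD, 68.9 ± 17.1 (n = 5) in the LowMg-LFD, 202 ± 57.9 (n = 5) in the NormMg-HFD and 103 ± 28.1 (n = 5) in the LowMg-HFD mice. Fcgr2b took 52.3% ± 2.57 of it in the NormMg-LFD, 46.0% ± 2.82 in the LowMg-LFD, 24.0% ± 1.56 in the NormMg-HFD and 38.6% ± 10.2 in the LowMg-HFD mice. In those groups the share of Fcgr3 went the other way, with means of 41.2%, 44.0%, 61.7% and 52.2%. Fcgr1 held 3.33% to 11.7% and Fcgr4 0.854% to 6.68% of the sum in single mice. Because part of the reads of Fcgr2b and Fcgr3 were divided by estimate, these shares carry that uncertainty.

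The summed FPKM of the activating receptors over that of Fcgr2b was 1.05, 0.927, 0.863 and 0.825 in the NormMg-LFD mice and 1.32, 1.01, 1.07, 1.24 and 1.26 in the LowMg-LFD mice. It was 3.55, 3.00, 3.14, 3.36 and 2.87 in the NormMg-HFD mice, all above the other groups. The LowMg-HFD mice had 2.61, 2.66, 1.07, 1.29 and 1.17, so that 2 mice lay just below the NormMg-HFD range and 3 within the LFD range. The common gamma chain kept in step with its receptors. Fcer1g over the summed activating receptors had means of 1.28, 1.12, 1.17 and 1.17 in the NormMg-LFD, LowMg-LFD, NormMg-HFD and LowMg-HFD groups, with SDs of 0.188, 0.179, 0.153 and 0.118.

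**Figure D4:**
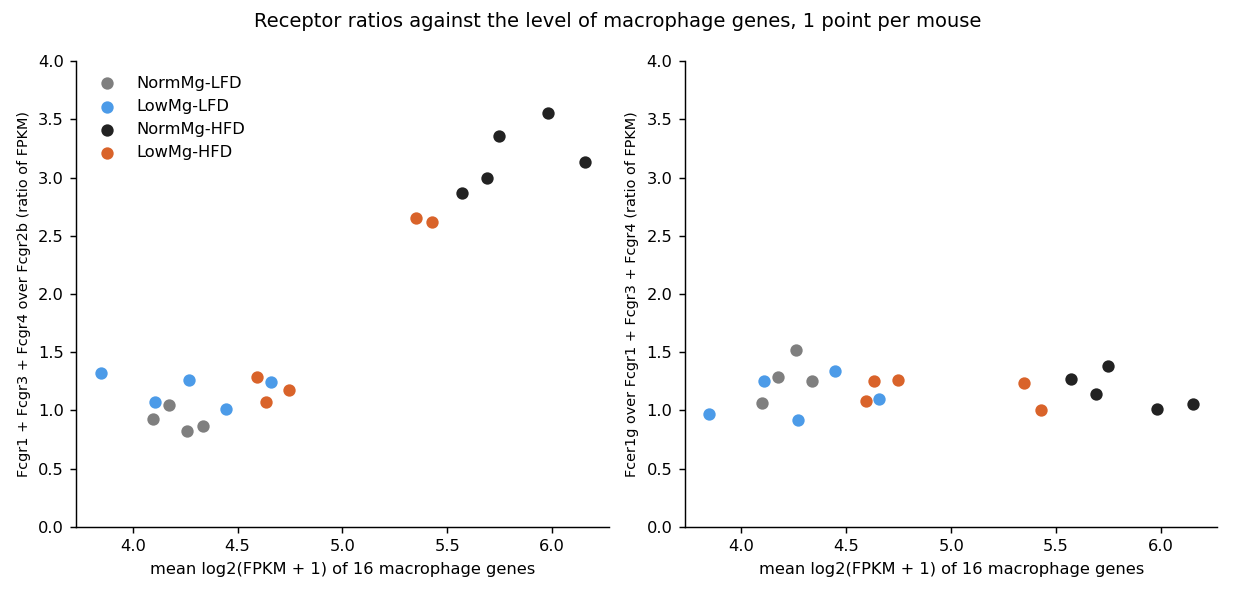
Ratios of FPKM (vertical axis) against the mean log2(FPKM + 1) of 16 macrophage genes (horizontal axis), 1 point per mouse. The activating receptors over Fcgr2b (left) were 2.61 to 3.55 in the 7 mice with a macrophage level of 5.35 or more and 0.825 to 1.32 in the other 12, while Fcer1g over the activating receptors (right) stayed between 0.918 and 1.52.

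The mice fell into 2 clusters by macrophage level, so no correlation over all mice is given. The members were also set against the macrophage list. The log2(FPKM + 1) of Fcer1g minus the mean of the list was 0.99 ± 0.04 (SD, n = 4) in the NormMg-LFD, 1.09 ± 0.20 in the LowMg-LFD, 1.61 ± 0.11 in the NormMg-HFD and 1.21 ± 0.18 in the LowMg-HFD mice (n = 5 each). For Fcgr3 these differences had means of 0.45, 0.66, 1.10 and 0.78. The low receptors also had their highest mean in the NormMg-HFD mice, but a lower mean in the LowMg-HFD than in the LowMg-LFD mice. The means were -2.31, -1.80, -1.68 and -2.26 for Fcgr1 and -3.26, -2.67, -2.25 and -2.86 for Fcgr4. The LowMg-LFD and LowMg-HFD mice overlapped for both genes, and for Fcgr4 their SDs were 0.51 and 0.52. For Fcgr2b the differences from the list ran the other way, at 0.78, 0.72, -0.25 and 0.31, so that Fcgr2b rose less than the macrophage genes on the NormMg-HFD. Fcgrt stood at 3.15, 3.09, 1.29 and 2.33, so that in the NormMg-HFD mice it was below Fcer1g on this measure.

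Within groups, the likeness between members was measured as Pearson's r of log2(FPKM + 1) after the group means were taken away, over 19 mice, which share their tissue sample and so its mixture of cells. Fcgr3 with Fcer1g (r = 0.872), Fcgr1 with Fcgr3 (0.858) and Fcgr1 with Fcer1g (0.850) were the closest pairs of members. Such values were not particular to the members. Of 8335 other genes, 35 had a higher r with Fcgr3 than Fcer1g had, and 87 a higher r with Fcer1g than Fcgr3 had. Fcgr2b had an r of 0.585 to 0.599 with Fcgr1, Fcgr3 and Fcer1g and 0.217 with Fcgr4. Among the members, Fcgrt had its lowest r with Fcgr1 (0.142) and its highest with Fcgr2b (0.482). The genes most like each member were Lmna (0.979), Nckap1l (0.963) and Itgb2 (0.960) for Fcer1g, and included Slfn2 (0.950) and Ctsa (0.936) for Fcgr3 and Ggta1 (0.907) and Efhd2 (0.903) for Fcgr1. For Fcgr4 they were Rab24 (0.894), Syngr2 (0.872) and Msr1 (0.827). Fcgr2b had Manf (0.872), Adam15 (0.872) and Kptn (0.865), and Fcgrt had Nnat (0.885), Dab2ip (0.885) and Emp1 (0.862). Itgb2 encodes a leukocyte integrin chain and Msr1 a macrophage scavenger receptor, whereas Nnat is an imprinted gene known from fat and nerve cells.

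**Figure D5:**
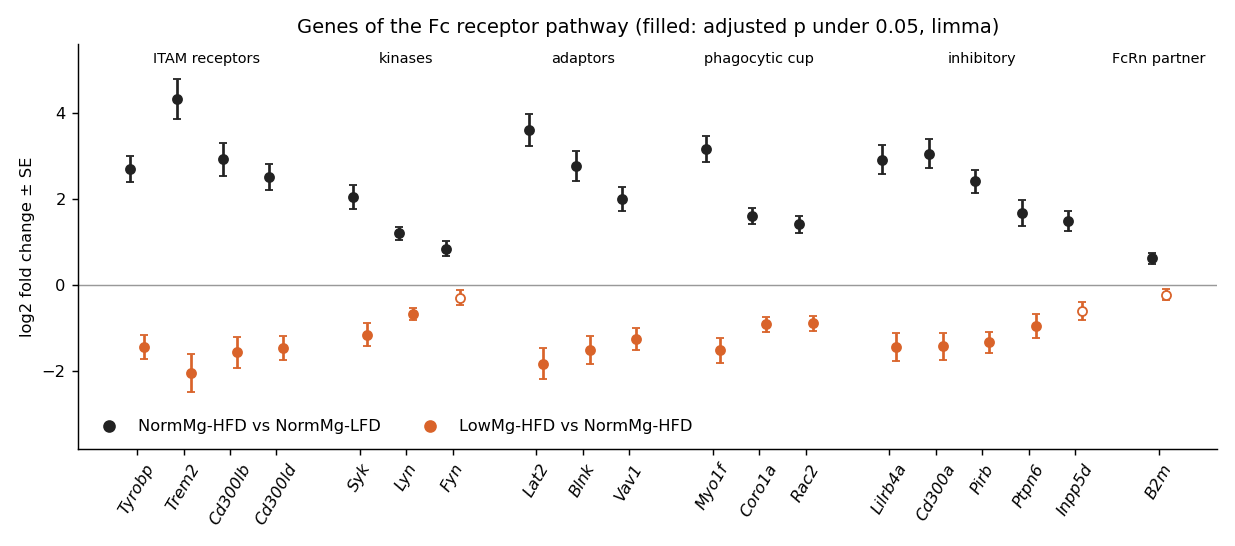
Log2 fold changes (points) with SE (bars) of named genes of the Fc receptor pathway, for NormMg-HFD against NormMg-LFD (black) and LowMg-HFD against NormMg-HFD (orange), filled where the adjusted p was under 0.05 by limma. The genes shown were picked for their change with Mg2+ on the HFD, taken from short lists in full or fixed by name, and rose on the NormMg-HFD by 0.62 for B2m to 4.32 for Trem2. The 3 adaptor genes called lower there (Plcg1, Pik3r1 and Prkca) are not shown, and Fyn, Inpp5d and B2m did not pass the test for Mg2+ on the HFD.

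The machinery around the receptors was read from lists of genes. Other receptors that use ITAM chains, and Tyrobp, the sister adaptor of Fcer1g, had 4 of 16 genes tested, of which 4 rose on the NormMg-HFD and 4 were lower in the LowMg-HFD mice. Tyrobp had means of 48.8 ± 6.76 (SD, n = 4), 50.5 ± 12.2, 330 ± 88.3 and 134 ± 76.3 FPKM (n = 5 each) in the NormMg-LFD, LowMg-LFD, NormMg-HFD and LowMg-HFD mice, with a log2 fold change of -1.44 (SE 0.28, adjusted p = 0.00296, limma) for Mg2+ on the HFD. The lipid receptor Trem2 fell by 2.04, Cd300lb by 1.56 and Cd300ld by 1.46 on the log2 scale. The median over the 4 genes was -1.51, beside -0.04 over all genes tested.

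Of the Src family kinases and Syk, which read the ITAM, 4 of 8 were tested, all 4 rose on the NormMg-HFD and 3 were lower in the LowMg-HFD mice. Among these, Syk fell by 1.15 (SE 0.27, adjusted p = 0.0064, limma) and Lyn by 0.66 (SE 0.14, adjusted p = 0.00425) on the log2 scale. Fyn, which many tissues make, had -0.29 (SE 0.17, adjusted p = 0.244). Syk had means of 8.88, 9.44, 40.4 and 19.3 FPKM in the NormMg-LFD, LowMg-LFD, NormMg-HFD and LowMg-HFD mice.

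Of the adaptors and effectors downstream of Syk, 20 of 25 were tested. At normal Mg2+ 13 were higher and 3 lower on the HFD, and 10 were lower and none higher in the LowMg-HFD than in the NormMg-HFD mice, with a median log2 fold change of -0.52. Over all genes tested, 24.6% were called higher and 12.8% lower in the first comparison, and 5.58% higher and 12.9% lower in the second, and these shares apply to each of the lists. The 3 lower on the NormMg-HFD, named after their values were seen, were Plcg1 (-0.48), Pik3r1 (-0.68) and Prkca (-0.74), which encode a phospholipase, a regulatory subunit of PI3-kinase and a protein kinase C. With no filter on low values Prkca lost its call (adjusted p = 0.0648, limma). Those that fell most in the LowMg-HFD mice were Lat2 (-1.82), Blnk (-1.50) and Vav1 (-1.25), which encode scaffold proteins and an exchange factor for Rac. Of the genes of the phagocytic cup and its actin, 15 of 18 were tested, 13 rose on the NormMg-HFD and 12 were lower in the LowMg-HFD mice, with a median of -0.63. The myosin gene Myo1f (-1.51), Coro1a (-0.91) and the leukocyte GTPase gene Rac2 (-0.89) fell most.

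Fcgr2b itself did not pass the test for Mg2+ on the HFD, and further inhibitory genes were read from a list. Of 15 listed, 11 were tested, 9 rose on the NormMg-HFD and 7 were lower in the LowMg-HFD mice, with a median log2 fold change of -0.75. The inhibitory receptors Lilrb4a (-1.44), Cd300a (-1.42) and Pirb (-1.33) fell most. The phosphatase gene Ptpn6 (SHP-1) was lower by 0.94 (SE 0.28, adjusted p = 0.0255, limma), and Inpp5d, the phosphatase that Fcgr2b recruits, had -0.60 (SE 0.22, adjusted p = 0.0601). With no filter Ptpn6 lost its call (adjusted p = 0.077, limma), and Inpp5d had an adjusted p of 0.145. Inpp5d had means of 5.49, 7.59, 17.5 and 11.7 FPKM in the NormMg-LFD, LowMg-LFD, NormMg-HFD and LowMg-HFD mice. No gene of these lists was called for Mg2+ on the LFD.

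As with Fcgr1 and Fcgr4, some genes of these lists passed the filter only through the NormMg-HFD mice, so that a rise there and a fall in the LowMg-HFD mice were favoured by the filter. They were 7 of the 20 tested adaptors and effectors (Vav1 among them), 1 of the 15 phagocytic genes (Rac2), 2 of the 11 inhibitory genes (Cd300a among them), 1 of the 4 ITAM genes (Cd300lb) and 1 of the 4 kinases. Among the others, a choice made after the data were seen, the genes lower in the LowMg-HFD mice were 5 of 13 adaptors and effectors, 11 of 14 phagocytic genes, 5 of 9 inhibitory genes, 3 of 3 ITAM genes and 2 of 3 kinases.

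With no filter the genes called lower by limma were 11 of 25 adaptors and effectors, 13 of 18 phagocytic genes, 6 of 14 inhibitory genes, 4 of 15 ITAM genes and 3 of 8 kinases, where 3.85% of 24237 genes were called lower. In that fit the adjusted p was 0.0136 for Vav1, 0.0115 for Rac2, 0.0201 for Cd300a and 0.0213 for Cd300lb.

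Antibody chains and further Fc receptors gave little signal. Of 12 immunoglobulin chain genes 3 were tested and none was called in any comparison. Ighm (the IgM heavy chain) had a log2 fold change of -0.18, Igkc (the kappa light chain) of -0.80 and Jchain of -0.60 for Mg2+ on the HFD, with adjusted p values of 0.756, 0.30 and 0.397 by limma. Of 13 further Fc and immunoglobulin receptors only Fcrls, an Fc receptor-like scavenger, was abundant enough to be tested, at -0.12 (SE 0.24, adjusted p = 0.756). With no filter 1 of the 13 was called lower in the LowMg-HFD mice.

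Other cells that carry Fc receptors were looked for by their markers, and their part in the results was not tested. No natural killer cell gene of 10 and no B cell gene of 8 reached the filter, and the natural killer genes summed to at most 21.4 FPKM and the B cell genes to at most 26.5 in any mouse. Of 11 neutrophil genes 1 was tested, S100a8, which fell by 1.83 (SE 0.40, adjusted p = 0.00492, limma) in the LowMg-HFD mice. Their summed FPKM ran from 23.1 to 160 in the NormMg-HFD and from 11.9 to 24.3 in the LowMg-HFD mice, and Ly6g and Ngp were at 0 in all mice of the groups other than NormMg-HFD. Of 9 mast cell genes 3 were tested and all 3 were lower in the LowMg-HFD than in the NormMg-HFD mice, namely the protease genes Mcpt4 (-1.38), Cma1 (-1.36) and Tpsb2 (-1.34), though none was called for fat at normal Mg2+. S100a8 and these 3 genes, like the T cell gene Il7r, passed the filter only through the NormMg-HFD mice, and with no filter their adjusted p by limma lay between 0.0139 (Tpsb2) and 0.0207 (Mcpt4). In that fit 5 of the 9 mast cell genes and 1 of the 11 neutrophil genes were called lower in the LowMg-HFD mice, where 3.85% of 24237 genes were.

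Of 9 dendritic cell genes 3 were tested and 2 were lower in the LowMg-HFD mice, including Itgax (-1.53). With no filter 1 of the 9 was called lower, namely Itgax (adjusted p = 0.0433, limma), and the other, Clec10a (-0.53), named after its value was seen, had an adjusted p of 0.113. Of 8 T cell genes only Il7r was tested, at -1.85. None of 3 tested monocyte genes was called for Mg2+ on the HFD, with Ccr2 at -0.40 (adjusted p = 0.25). Of the 9 endothelial genes, of interest for Fcgrt, 2 were higher in the LowMg-HFD mice and none lower, where 5.58% of all genes tested were called higher, and the list had a mean log2(FPKM + 1) of 5.07 in the NormMg-HFD and 5.31 in the LowMg-HFD mice. Adipocyte genes went the other way from the activating receptors, with 5 of 10 higher and none lower in the LowMg-HFD mice against the same 5.58%, among them Adipoq by 0.69 (SE 0.17, adjusted p = 0.00872, limma).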

How the data were processed

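RNA of eWAT from 19 mice was sequenced by the authors (1 library per mouse, 50-base single-end reads). Per the labels and the study's methods, reads were mapped to the mouse transcriptome (GRCm38/mm10) with HISAT and Bowtie2, and RSEM 1.2.31 gave the FPKM values that were deposited. The authors also deposited the number of reads (a count per mouse) and the percent of reads mapped. Read counts per gene were not analysed here, so the counting error of a single FPKM value is unknown and precision rests on the spread between mice.

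Of 24238 genes, 1 held a value that could not be read and was dropped, and 26 symbols turned into dates were restored. Groups came from the labels, and value columns headed with low Mg2+ and no fat level were read as LowMg-LFD. A gene was tested if the mean of any group, and at least 4 mice of that group, exceeded 8 FPKM (8336 genes), on log2(FPKM + 1), with all 19 mice in 1 limma fit (version 3.58.1, R 4.3.3, with an intensity trend), 5 two-sided contrasts and Benjamini-Hochberg adjustment. The filter was modelled on that of the study, with 8 read on the FPKM scale and with every deposited mouse. Members, lists and the rule for named genes (the 6 members, up to 3 called genes of each list and direction, lists of up to 5 tested genes in full, 7 fixed pathway genes, the 3 genes most like each member, and 1 to 3 markers of each cell type) were chosen with earlier results of these data known. Results for 2 genes under that rule were left out. Where a symbol stood for 2 gene identifiers (Itgam), the more abundant was used. The alternatives covered the pseudocount, the filter, the scaling, the samples in the fit, the variance model, the replicate block and leaving out mice. Sequences came from RefSeq (GRCm38.p6 promoters, all 6 members matched) and GENCODE M21. Figures were drawn with matplotlib 3.10.9.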

Additional observations from a re-analysis of the deposited data

Results flagged for a closer look

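A limma test of whether low Mg2+ acted differently on the HFD and the LFD called Fcgr3 and Fcer1g, but not stably. The difference was -1.46 on the log2 scale for Fcgr3 and -1.43 for Fcer1g (adjusted p = 0.0447 and 0.0461). Of all genes tested, 0.756% were called in that direction. Between the HFD groups the log2 fold change was -1.20 for Fcgr3 and -1.28 for Fcer1g, and between the LFD groups it was 0.26 and 0.15. For Fcgr3 4 of 5 LowMg-HFD mice, and for Fcer1g 5 of 5, were below every NormMg-HFD mouse. Both calls were lost in most fits that left out 1 mouse. Over all 30 alternatives the call was lost in 21 for Fcgr3 and in 22 for Fcer1g. These included the fit with no filter on low values and that without the mice with neighbouring tissue. In 24 tests of a group for a mouse far from the others (6 genes in 4 groups), none passed Dixon's limit, where chance gives about 1 in 20.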

How the results depend on the processing

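The 4 calls of LowMg-HFD against NormMg-HFD held under each of 31 alternatives, as did the 0 calls on the LFD. For the interaction, 0 members were called with a pseudocount of 0.1, genes over 1 FPKM, no filter, no intensity trend, the replicate block, without the mice with neighbouring tissue and with genes of a mean over 1 FPKM over all mice, and 4 with median centring or quantile normalization. It ran from 0 to 4 as each mouse was left out. For LowMg-HFD against LowMg-LFD 0 were called with no filter or only the groups compared, and 0 to 2 as each mouse was left out. The fits without the mice with neighbouring tissue and with genes of a mean over 1 FPKM were chosen after seeing the data. The cause was not tested. For NormMg-HFD against NormMg-LFD 4 to 6 members were called. Fcgr2b lost its call with no filter (adjusted p = 0.0665, limma) or quantile normalization (0.0527).

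Signs near 0 turned. For LowMg-LFD against NormMg-LFD, Fcgr2b became 0.05 with median centring, 0.03 with quantile normalization and 0.02 with the replicate block, and ran from -0.11 to 0.16 as each mouse was left out (above 0 without NormMg-LFD replicate 3 or 4 or LowMg-LFD replicate 1 or 3). Fcgrt became 0.05 with median centring, 0.005 with the replicate block and 0.0026 without the mice with neighbouring tissue, and ran from -0.09 to 0.06 (above 0 without NormMg-LFD replicate 2 or 3 or LowMg-LFD replicate 1 or 3). For LowMg-HFD against LowMg-LFD, Fcgr1 and Fcgr4 became -0.13 with quantile normalization, and Fcgrt became 0.02 without the mice with neighbouring tissue and ran from -0.15 to 0.0072 (without LowMg-HFD replicate 4) as each mouse was left out.

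The labels do not say that mice that share a number are paired, and the main fit did not pair them. The r of the deviations of mice of the same number ran from -0.183 to 0.339 (median 0.003), and 5 of 27 were over 0.1. For mice of other numbers it ran from -0.265 to 0.201 (median -0.002), and 18 of 108 were over 0.1. These values do not decide whether the mice were paired. The replicate block left 4, 0, 5 and 2 members called in the comparisons of 2 groups, and 0 genes of all in the interaction, against 104.

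Median centring changed genes called higher and lower from 465 and 1077 to 649 and 849 for Mg2+ on the HFD, from 2048 and 1066 to 1580 and 1572 for fat at normal Mg2+, and from 1036 and 293 to 593 and 531 at low Mg2+. Genes called in the interaction ran from 0 to 476 over the alternatives, for fat at low Mg2+ from 725 to 1470, and for Mg2+ on the HFD from 945 (without NormMg-HFD replicate 3) to 1679. On the LFD 1 gene was called with no filter.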
